A study of Homo sapiens with 18 samples.

Results

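The genes of cholesterol synthesis, uptake and efflux were followed in HAIR-M, an established human cell line of marginal zone lymphoma (MZL), a cancer of mature B cells. The 29 genes were chosen by symbol from the 60483 gene identifiers of the count tables: 8 enzymes of the mevalonate arm, 11 enzymes from squalene to cholesterol, 4 genes of SREBP2 control, 4 genes of uptake and transport within the cell, and 2 exporters. The treatment was copanlisib at 5 nM, which inhibits phosphoinositide 3-kinases (PI3K), or DMSO, the solvent, for 4, 8 or 12 h in medium with fetal bovine serum. This gave 6 groups of 3 RNA sequencing libraries, and each copanlisib group was set against the DMSO group of its time. The labels name no genetic change in any group, and the data describe 1 cell line at 1 dose. They do not say whether replicates were separate cultures, so the spread behind the p-values is that between libraries and may be technical.

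Cells make cholesterol from acetyl-CoA through mevalonate, isoprenoid diphosphates, squalene and lanosterol, and they also take it up from serum lipoproteins. When sterols are scarce in the endoplasmic reticulum, SCAP escorts the precursor of the transcription factor SREBP2 to the Golgi, where it is cleaved and released to switch on most genes of synthesis and uptake. INSIG proteins hold SCAP back when sterols are plentiful. Oxysterols instead activate the nuclear receptor LXR, which switches on the exporters ABCA1 and ABCG1 and the uptake inhibitor MYLIP, and PI3K signalling through AKT and mTORC1 is known to promote SREBP processing.

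Between 13587017 and 25566761 reads per library were counted on genes, and all 29 genes passed the filter on low counts, which left 16122 genes tested. Levels are given as CPM (read counts scaled to library size by edgeR). Differences are given as log2 fold changes of copanlisib over DMSO with their standard error (SE), from edgeR's quasi-likelihood test with Benjamini-Hochberg adjustment over all genes tested, and an adjusted p under 0.05 is the threshold. In the 4 h copanlisib group, replicates 1 and 2 differed from all other libraries: 8.73% and 5.22% of their reads were unmapped, against 1.74% to 2.82% in the other 16 libraries, and mitochondrial genes held 12.4% and 12.6% of their gene reads, against 9.07% to 10.5%. The 4 h values of the cholesterol genes are therefore also given with replicate 3 alone, without the other two copanlisib libraries of that time, in a fit that assumes this library to vary like the other groups. The 6 B cell markers (such as CD79A and PAX5) summed to 1290.2 to 1460.0 CPM in copanlisib cells and 1205 to 1255 CPM in DMSO cells at 4 h, and to 1906 to 1962 CPM in copanlisib cells and 1489 to 1534 CPM in DMSO cells at 12 h. The 7 T and NK cell markers summed to at most 0.665 CPM in any library and the 6 retina markers to at most 0.297 CPM. The 6 myeloid markers summed to 4.26 to 9.83 CPM, with LYZ, MPO and FCGR3A at no more than 3 reads in any library. The sum of the 6 markers of stroma and epithelium was higher with copanlisib. It was 15.6 to 17.5 CPM in copanlisib cells and 10.3 to 13.1 CPM in DMSO cells at 4 h. At 12 h it was 21.9 to 25.1 CPM in copanlisib cells and 15.9 to 17.7 CPM in DMSO cells. CDH1 was the largest of the 6 in every library, at 6.06 to 16.8 CPM. PDGFRB, EPCAM and PECAM1 held at most 4.77, 2.83 and 1.68 CPM, and COL1A2 and COL3A1 no more than 3 reads in any library. The part of all these markers in the results on the cholesterol genes was not tested.

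Promoters were read for the 25 of the 29 genes that have an entry in a RefSeq promoter table (GRCh38.p14), as 33 windows of 300 bases around annotated starts of transcription. Windows of 5 of them are printed because the results turn on their genes: HMGCS1 and IDI1, which had the lowest log2 fold changes at 8 and 12 h, INSIG1, which fell at 4 and 8 h, INSIG2, its paralog, and SREBF2, the gene of SREBP2 itself. Capitals mark matches, on either strand, to the letters CCAAT (the NF-Y box, which reads ATTGG on the other strand) and, in SREBF2, to TCACNCCAC (the sterol regulatory element, SRE).
HMGCS1 (chr5:43313363-43313662, reverse strand): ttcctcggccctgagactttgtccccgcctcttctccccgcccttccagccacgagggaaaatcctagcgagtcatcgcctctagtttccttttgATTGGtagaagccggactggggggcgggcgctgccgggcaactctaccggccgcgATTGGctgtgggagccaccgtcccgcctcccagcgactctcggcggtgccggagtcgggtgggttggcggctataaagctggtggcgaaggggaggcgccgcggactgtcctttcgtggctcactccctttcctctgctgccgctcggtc
IDI1 (chr10:1048837-1049136, reverse strand): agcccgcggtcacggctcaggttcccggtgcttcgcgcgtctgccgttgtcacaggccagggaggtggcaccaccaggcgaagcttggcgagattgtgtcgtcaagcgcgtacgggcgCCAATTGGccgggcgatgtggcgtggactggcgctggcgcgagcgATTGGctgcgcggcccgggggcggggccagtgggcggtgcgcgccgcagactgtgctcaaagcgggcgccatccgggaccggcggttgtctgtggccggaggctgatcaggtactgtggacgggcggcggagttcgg
INSIG1 (chr7:155297628-155297927, forward strand): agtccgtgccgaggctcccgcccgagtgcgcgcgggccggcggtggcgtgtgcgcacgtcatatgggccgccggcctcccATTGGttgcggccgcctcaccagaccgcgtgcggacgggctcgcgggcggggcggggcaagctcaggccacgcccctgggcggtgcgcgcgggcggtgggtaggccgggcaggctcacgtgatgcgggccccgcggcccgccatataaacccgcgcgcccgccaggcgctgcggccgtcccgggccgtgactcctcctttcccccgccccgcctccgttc
SREBF2 (chr22:41832855-41833154, forward strand): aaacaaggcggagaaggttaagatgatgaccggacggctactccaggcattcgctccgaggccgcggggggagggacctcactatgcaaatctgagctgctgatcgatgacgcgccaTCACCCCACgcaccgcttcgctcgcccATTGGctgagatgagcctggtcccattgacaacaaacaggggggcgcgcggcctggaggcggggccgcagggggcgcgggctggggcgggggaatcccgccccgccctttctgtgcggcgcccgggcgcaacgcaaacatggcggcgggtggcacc
INSIG2 (chr2:118088221-118088520, forward strand): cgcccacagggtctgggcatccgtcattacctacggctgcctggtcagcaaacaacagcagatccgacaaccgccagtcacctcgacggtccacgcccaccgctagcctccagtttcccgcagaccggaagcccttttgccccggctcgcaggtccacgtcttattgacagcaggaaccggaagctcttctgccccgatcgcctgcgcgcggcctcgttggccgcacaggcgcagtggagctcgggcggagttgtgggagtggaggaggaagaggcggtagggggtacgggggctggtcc

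The NF-Y box was found in 19 of the 25 genes (76.0%), against 42.8% of the 11171 tested genes with a window. A gene was counted when any of its windows held a match. Of the 2 windows of HMGCS1, the one shown held 2 matches and the other 0. Of the 3 windows of IDI1, the one shown held 3, of which 2 overlap each other, and the others 2 and 0. INSIG1 and SREBF2 held 1 each, and neither of the 2 windows of INSIG2 held any. The SRE letters were found in SREBF2 alone, 133 bases before the start, where they did not overlap the NF-Y box. Over all tested genes with a window the share was 1.49%. The GC box GGGCGG was in 24 of the 25 genes (96.0%, against 75.1% of tested genes) and the E-box CACGTG in 5 of the 25, against 12.6%. A match in these windows is a description of the letters and not a binding site, and the lack of an exact match does not show that a site is absent.

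Of the 19 synthesis enzymes, 15 fell at 4 h (13 with replicate 3 alone), 14 at 8 h and 14 at 12 h. At 4 h, 18 of the 29 genes fell and 3 rose by edgeR's test, where 20.7% of all tested genes fell and 17.7% rose. With replicate 3 alone, a fit that tested 17007 genes, 16 fell and 0 rose, where 13.4% of all genes fell and 8.86% rose, and 1 member had an unadjusted p under 0.05 on the higher side. At 8 h, 18 fell and 1 rose, against 18.3% and 14.8% of all genes. At 12 h, 17 fell and 1 rose, against 16.5% and 13.8% of all genes. The median log2 fold change of the 29 genes was −0.22 at 4 h (−0.24 with replicate 3 alone), −0.26 at 8 h and −0.23 at 12 h, while that of all tested genes lay between 0.0044 and 0.015 and was −0.0047 with replicate 3 alone. Among the members, 11 fell at all 3 times, and these 11 also fell at 4 h with replicate 3 alone: ACAT2, HMGCS1, MVD, IDI1, FDPS, FDFT1, SQLE, MSMO1, NSDHL, HSD17B7 and DHCR7. All 11 are synthesis enzymes. Of all 16122 tested genes, 8.32% fell at all 3 times and 7.26% also fell at 4 h with replicate 3 alone. In a fit of the 6 libraries of 4 h by themselves, ACAT2 lost its 4 h call (edgeR adjusted p = 0.054), as did LSS (0.056), SCAP (0.077), GGPS1 (0.16), PMVK (0.16) and SREBF2 (0.19). In cells measured in bulk, less RNA per cell and fewer cells of a type cannot be told apart.

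**Figure D1:**
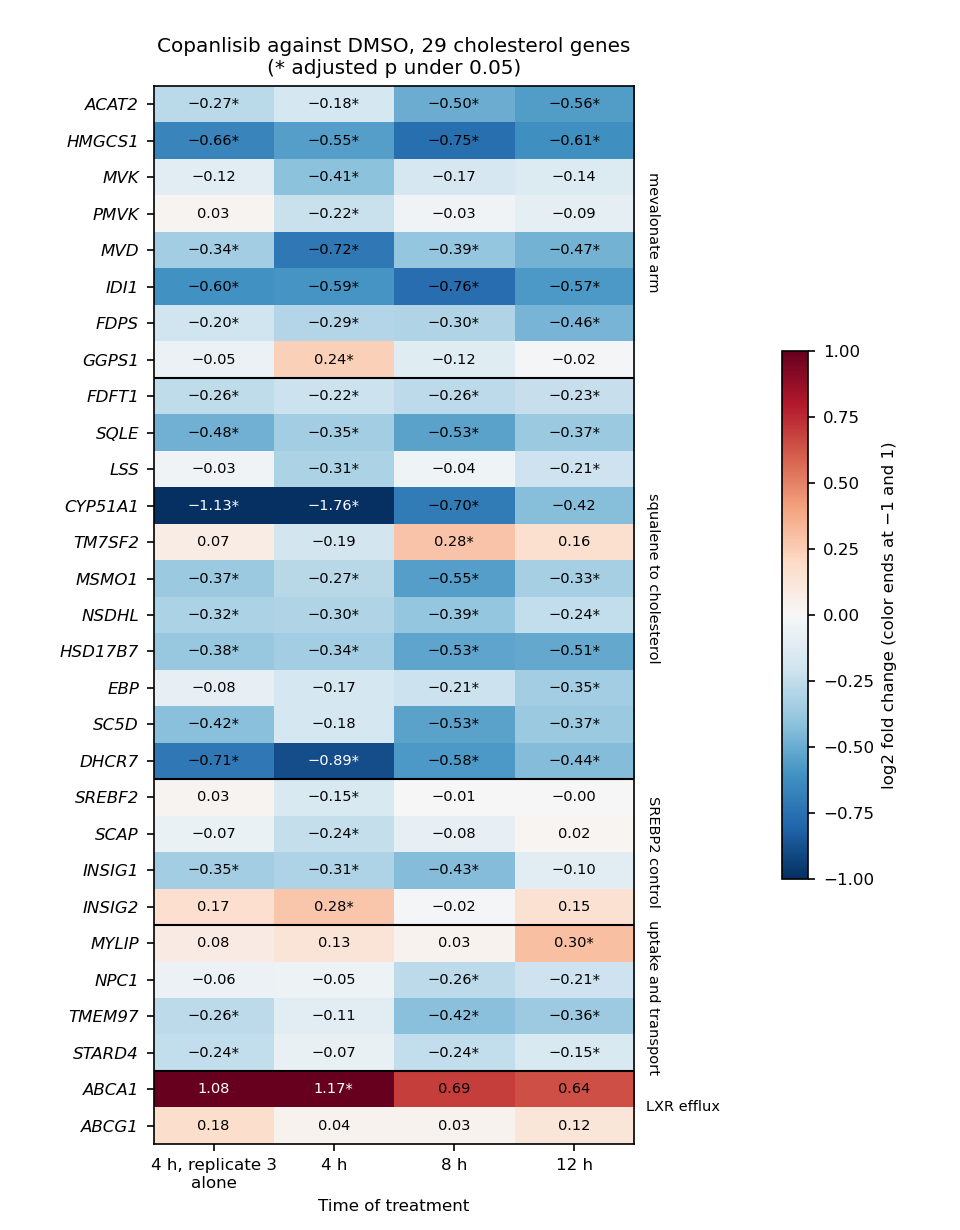
Log2 fold change of copanlisib over DMSO for the 29 genes (rows, grouped by role) at 4, 8 and 12 h, with the 4 h value from copanlisib replicate 3 alone in the leftmost column. Blue is lower and red higher in copanlisib cells, and an asterisk marks an adjusted p under 0.05. The rows of synthesis enzymes are mostly blue in all columns, those of SREBF2, SCAP and INSIG2 are pale at 8 and 12 h, and ABCA1 is red with only its 4 h value from all 3 libraries past the threshold.

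Summed over the 19 synthesis enzymes, transcripts came to 1615, 1630 and 1696 CPM in copanlisib cells, against 2150, 2092 and 2166 CPM in DMSO cells at 4 h. The sums were 1717, 1688 and 1677 CPM in copanlisib cells and 2230, 2215 and 2202 CPM in DMSO cells at 8 h, and 1602, 1546 and 1501 CPM in copanlisib cells and 1997, 1955 and 2029 CPM in DMSO cells at 12 h. The 3 copanlisib libraries lay below the 3 DMSO libraries at each time, and the sum is set mainly by the most abundant enzymes. It was not tested.

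In the mevalonate arm, 7 of 8 genes fell and 1 rose at 4 h, and 5 fell at 8 h and at 12 h. In the fit with replicate 3 alone, the same 5 fell at 4 h and none of the 8 rose by edgeR or at an unadjusted p under 0.05. ACAT2, the cytosolic thiolase that joins acetyl-CoA units in the opening step, was at 83.1, 83.4 and 75.9 CPM in copanlisib cells, against 89.7, 89.8 and 94.7 CPM in DMSO cells at 4 h. It was at 81.9, 79.6 and 77.5 CPM in copanlisib cells, against 113, 116 and 108 CPM in DMSO cells at 8 h and at 74.8, 72.4 and 71.0 CPM in copanlisib cells, against 111, 100.2 and 109.8 CPM in DMSO cells at 12 h. The copanlisib libraries were all lower, and the gap was narrowest at 4 h: the log2 fold change was −0.18 ± 0.05 (edgeR adjusted p = 0.0084) at 4 h. It was −0.50 ± 0.05 (edgeR adjusted p = 2.4e-08) at 8 h and −0.56 ± 0.05 (edgeR adjusted p = 5.6e-09) at 12 h. Without copanlisib replicates 1 and 2 of 4 h it was −0.27 ± 0.06 (edgeR adjusted p = 0.0011) at 4 h. For ACAT2, leaving out DMSO replicate 3 ended the 4 h call (edgeR adjusted p = 0.052). In the annotation 52.3% of its exon bases lie opposite TCP1 and SOD2, so its level rests on the strand-specific counting.

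HMGCS1, the HMG-CoA synthase (chr5:43289395-43313512, reverse strand, GRCh38), fell at all 3 times. At 4 h it was at 172, 164 and 149 CPM in copanlisib cells, against 235, 241 and 236 CPM in DMSO cells. At 8 h it was at 127, 133 and 127 CPM in copanlisib cells, against 215, 225 and 211 CPM in DMSO cells. At 12 h it was at 108, 107 and 103 CPM in copanlisib cells, against 166, 163 and 157 CPM in DMSO cells. The groups did not overlap at any time, and DMSO levels themselves were lower at 12 h than at 4 h. For this and every other gene named, a lack of overlap is a description only. The share of all tested genes whose copanlisib and DMSO libraries separated was not counted. For HMGCS1 the log2 fold change was −0.55 ± 0.05 (edgeR adjusted p = 8.4e-10) at 4 h (−0.66 ± 0.05 with replicate 3 alone). It was −0.75 ± 0.05 (edgeR adjusted p = 5.6e-12) at 8 h and −0.61 ± 0.05 (edgeR adjusted p = 3.7e-10) at 12 h. At 8 h this is a fold of 0.594. Of the HMGCS1 exon bases 14.95% lie opposite AC114947.2, and its reads counted without strand came to 0.728 of those counted on its strand. Its level thus also rests on the strand-specific counting.

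MVK and PMVK, the kinases of the pathway, passed at 4 h with all libraries, and neither passed with replicate 3 alone or at 8 or 12 h. MVK, mevalonate kinase, was at 20.5, 20.5 and 28.2 CPM in copanlisib cells, against a mean of 30.5 ± 1.39 CPM in DMSO cells (SD, n = 3, up to 31.7 CPM) at 4 h, where the libraries labelled replicates 1 and 2 of copanlisib were low and replicate 3 close to DMSO. For MVK the log2 fold change was −0.41 ± 0.09 (edgeR adjusted p = 8.9e-04) at 4 h with all libraries but −0.12 ± 0.09 (edgeR adjusted p = 0.40) with replicate 3 alone, and it did not pass at 8 h (−0.17 ± 0.09 (edgeR adjusted p = 0.15)) or 12 h (−0.14 ± 0.09 (edgeR adjusted p = 0.26)). PMVK, phosphomevalonate kinase, was at 44.1, 47.4 and 59.6 CPM in copanlisib cells, against 59.5, 54.8 and 61.7 CPM in DMSO cells at 4 h, with the same split of the copanlisib libraries. Its log2 fold change there was −0.22 ± 0.08 (edgeR adjusted p = 0.030), but 0.028 ± 0.07 (edgeR adjusted p = 0.84) with replicate 3 alone, and −0.033 ± 0.08 at 8 h and −0.091 ± 0.08 at 12 h. For PMVK, leaving out copanlisib replicate 1, copanlisib replicate 2, DMSO replicate 1 or DMSO replicate 3 ended the 4 h call (edgeR adjusted p up to 0.18). The 95% interval of the PMVK difference was −0.18 to 0.12 at 8 h and −0.24 to 0.060 at 12 h.

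MVD, which decarboxylates mevalonate diphosphate, fell at all 3 times. It was at 45.9, 50.6 and 72.7 CPM in copanlisib cells, against 92.3, 87.2 and 98.0 CPM in DMSO cells at 4 h. It was at 81.6, 77.4 and 78.4 CPM in copanlisib cells, against 105, 103 and 103 CPM in DMSO cells at 8 h. It was at 69.1, 63.4 and 65.7 CPM in copanlisib cells, against 85.8, 91.7 and 96.9 CPM in DMSO cells at 12 h. The copanlisib libraries were the lower ones throughout, and replicates 1 and 2 were the lowest at 4 h. The log2 fold change at 4 h was −0.72 ± 0.10 (edgeR adjusted p = 1.5e-06) with all libraries and −0.34 ± 0.07 (edgeR adjusted p = 7.3e-05) with replicate 3 alone. It was −0.39 ± 0.09 (edgeR adjusted p = 0.0017) at 8 h and −0.47 ± 0.10 (edgeR adjusted p = 3.9e-04) at 12 h. IDI1, the isomerase that supplies dimethylallyl diphosphate, was at 100.4, 100.4 and 98.4 CPM in copanlisib cells, against 157, 148 and 145 CPM in DMSO cells at 4 h. It was at 95.7, 94.4 and 96.5 CPM in copanlisib cells, against 159, 165 and 161 CPM in DMSO cells at 8 h and at 97.1, 92.9 and 85.1 CPM in copanlisib cells, against 140.0, 132 and 136 CPM in DMSO cells at 12 h. All copanlisib libraries lay between 85.1 and 100.4 CPM while all DMSO libraries lay between 132 and 165 CPM. For IDI1 the log2 fold change was −0.59 ± 0.05 (edgeR adjusted p = 3.4e-10) at 4 h (−0.60 ± 0.06 with replicate 3 alone). It was −0.76 ± 0.05 (edgeR adjusted p = 5.2e-12) at 8 h and −0.57 ± 0.05 (edgeR adjusted p = 1.1e-09) at 12 h.

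FDPS, the farnesyl diphosphate synthase, was at 182, 181 and 199.8 CPM in copanlisib cells, against 231, 221 and 237 CPM in DMSO cells at 4 h and at 245, 233 and 224 CPM in copanlisib cells, against 323, 314 and 329 CPM in DMSO cells at 12 h. Its levels were higher at 12 h than at 4 h in both treatments, and copanlisib cells were lower at each time. For FDPS the log2 fold change was −0.29 ± 0.05 (edgeR adjusted p = 2.8e-05) at 4 h (−0.20 ± 0.06 with replicate 3 alone). It was −0.30 ± 0.05 (edgeR adjusted p = 1.7e-05) at 8 h and −0.46 ± 0.05 (edgeR adjusted p = 3.2e-08) at 12 h. The genome holds 8 pseudogenes named after FDPS, and reads that match several places were not counted, so its level is uncertain. Of the FDPS exon bases 18.6% lie opposite RUSC1-AS1, and its reads counted without strand came to 0.427 of those counted on its strand. The level of FDPS thus also rests on the strand-specific counting. GGPS1, which makes geranylgeranyl diphosphate for protein prenylation, was at 32.4, 32.5 and 24.2 CPM in copanlisib cells, against 26.8, 23.8 and 25.4 CPM in DMSO cells at 4 h. Replicates 1 and 2 of copanlisib were high and replicate 3 sat among the DMSO libraries: its log2 fold change was 0.24 ± 0.09 (edgeR adjusted p = 0.028) with all libraries and −0.055 ± 0.09 (edgeR adjusted p = 0.74) with replicate 3 alone. For GGPS1, leaving out copanlisib replicate 1, copanlisib replicate 2, DMSO replicate 2 or DMSO replicate 3 ended the 4 h call (edgeR adjusted p up to 0.17). At 8 and 12 h its log2 fold change was −0.12 ± 0.08 and −0.018 ± 0.09. Of its exon bases, 37.3% are shared with TBCE on the same strand.

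From squalene to cholesterol, 8 of 11 genes fell and 0 rose at 4 h (edgeR; 0 also by DESeq2 and at an unadjusted p under 0.05). In the fit with replicate 3 alone, 8 fell and 0 rose by edgeR, with 0 at an unadjusted p under 0.05 on the higher side. At 8 h 9 fell and 1 rose, and at 12 h 9 fell and 0 rose, with 0 again by DESeq2 and at an unadjusted p under 0.05. FDFT1, the squalene synthase that commits farnesyl units to sterols, was at 224, 224 and 215 CPM in copanlisib cells, against 262, 256 and 253 CPM in DMSO cells at 4 h. It was at 258, 259 and 256 CPM in copanlisib cells, against 319.7, 311 and 296 CPM in DMSO cells at 8 h. It was at 265, 253 and 246 CPM in copanlisib cells, against 300.3, 296 and 299.8 CPM in DMSO cells at 12 h. The shift was small and separated the groups at each time. For FDFT1 the log2 fold change was −0.22 ± 0.04 (edgeR adjusted p = 1.2e-04) at 4 h (−0.26 ± 0.05 with replicate 3 alone). It was −0.26 ± 0.04 (edgeR adjusted p = 1.1e-05) at 8 h and −0.23 ± 0.04 (edgeR adjusted p = 8.2e-05) at 12 h. SQLE, the squalene epoxidase that helps set the flux into sterols, was at 159, 159.6 and 139 CPM in copanlisib cells, against 194, 191 and 199.8 CPM in DMSO cells at 4 h. It was at 142, 147 and 144 CPM in copanlisib cells, against 210.1, 213 and 203 CPM in DMSO cells at 8 h and at 143, 138 and 135 CPM in copanlisib cells, against 185, 179 and 177 CPM in DMSO cells at 12 h. Copanlisib libraries were lower at each time, with replicate 3 the lowest at 4 h. For SQLE the log2 fold change was −0.35 ± 0.05 (edgeR adjusted p = 2.1e-06) at 4 h (−0.48 ± 0.05 (edgeR adjusted p = 4.1e-10) with replicate 3 alone). It was −0.53 ± 0.05 (edgeR adjusted p = 2.4e-09) at 8 h and −0.37 ± 0.05 (edgeR adjusted p = 1.2e-06) at 12 h.

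LSS, which closes the ring to lanosterol, was at 202, 209 and 279 CPM in copanlisib cells, against 285, 278 and 296 CPM in DMSO cells at 4 h. Replicate 3 of copanlisib lay within the DMSO range and the others below it, and the log2 fold change was −0.31 ± 0.07 (edgeR adjusted p = 0.0013) with all libraries but −0.035 ± 0.05 (edgeR adjusted p = 0.71) with replicate 3 alone. It was −0.043 ± 0.07 (edgeR adjusted p = 0.70) at 8 h and −0.21 ± 0.08 (edgeR adjusted p = 0.038) at 12 h, where the copanlisib libraries held 149 to 152 CPM and the DMSO libraries 166 to 185 CPM. For LSS, leaving out copanlisib replicate 1, copanlisib replicate 2, copanlisib replicate 3, DMSO replicate 2 or DMSO replicate 3 ended the 12 h call (edgeR adjusted p up to 0.17). CYP51A1, the lanosterol demethylase, had only 11 to 67 counted reads per library, and 79.4% of its exon bases are shared on the same strand with the annotated loci AC000120.2 and AC000120.3, so most of its reads may not be counted. On those reads it was at 0.533, 0.994 and 1.59 CPM in copanlisib cells, against 3.63, 3.38 and 3.54 CPM in DMSO cells at 4 h, with the log2 fold change at −1.76 ± 0.25 (edgeR adjusted p = 4.4e-06), or −1.13 ± 0.29 (edgeR adjusted p = 0.0027) with replicate 3 alone. It was −0.70 ± 0.23 (edgeR adjusted p = 0.021) at 8 h, and at 12 h it did not pass (−0.42 ± 0.27 (edgeR adjusted p = 0.26)). For CYP51A1, leaving out copanlisib replicate 2, DMSO replicate 2 or DMSO replicate 3 ended the 8 h call (edgeR adjusted p up to 0.13).

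Of the enzymes that trim lanosterol, MSMO1, NSDHL and HSD17B7 fell at 8 h and TM7SF2 rose. MSMO1, which oxidizes the methyl groups at the fourth carbon, was at 89.6, 85.4 and 83.7 CPM in copanlisib cells, against 122, 132 and 125 CPM in DMSO cells at 8 h. For MSMO1 the log2 fold change was −0.27 ± 0.05 (edgeR adjusted p = 8.7e-05) at 4 h (−0.37 ± 0.06 with replicate 3 alone). It was −0.55 ± 0.05 (edgeR adjusted p = 2.5e-09) at 8 h and −0.33 ± 0.05 (edgeR adjusted p = 1.7e-05) at 12 h. NSDHL, the dehydrogenase of the same demethylation, was at 30.3, 31.5 and 29.1 CPM in copanlisib cells, against 39.0, 39.6 and 40.4 CPM in DMSO cells at 8 h. For NSDHL the log2 fold change was −0.30 ± 0.07 (edgeR adjusted p = 0.0010) at 4 h (−0.32 ± 0.09 (edgeR adjusted p = 0.0062) with replicate 3 alone). It was −0.39 ± 0.07 (edgeR adjusted p = 4.7e-05) at 8 h and −0.24 ± 0.07 (edgeR adjusted p = 0.0090) at 12 h. For NSDHL, leaving out copanlisib replicate 3 or DMSO replicate 3 ended the 12 h call (edgeR adjusted p up to 0.093). In both genes the copanlisib and DMSO libraries did not overlap at 8 h, where the share of all tested genes that separated was not counted. HSD17B7, the ketosteroid reductase that completes that cycle, was at 13.99, 14.1 and 13.1 CPM in copanlisib cells, against 18.1, 21.2 and 20.3 CPM in DMSO cells at 8 h. For HSD17B7 the log2 fold change was −0.34 ± 0.10 (edgeR adjusted p = 0.0073) at 4 h (−0.38 ± 0.13 (edgeR adjusted p = 0.028) with replicate 3 alone). It was −0.53 ± 0.09 (edgeR adjusted p = 7.3e-05) at 8 h and −0.51 ± 0.10 (edgeR adjusted p = 3.9e-04) at 12 h. For HSD17B7, leaving out DMSO replicate 3 ended the 4 h call (edgeR adjusted p = 0.090). The annotation holds 2 pseudogenes named after HSD17B7. TM7SF2, a sterol reductase that acts after CYP51A1, rose at 8 h. It was at 33.3, 29.7 and 30.2 CPM in copanlisib cells, against 23.6, 26.6 and 26.6 CPM in DMSO cells then, and the groups did not overlap. For TM7SF2 the log2 fold change was 0.28 ± 0.08 (edgeR adjusted p = 0.0094) at 8 h, 0.16 ± 0.09 (edgeR adjusted p = 0.16) at 12 h, and at 4 h −0.19 ± 0.09 (edgeR adjusted p = 0.10), or 0.071 ± 0.10 (edgeR adjusted p = 0.67) with replicate 3 alone. For TM7SF2, leaving out copanlisib replicate 1 or DMSO replicate 1 ended the 8 h call (edgeR adjusted p up to 0.077).

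Of the last steps, which shift and saturate the double bonds, DHCR7 fell at all 3 times and EBP and SC5D at 8 and 12 h. EBP, the sterol isomerase, was at 36.1, 34.4 and 32.6 CPM in copanlisib cells, against 43.0, 40.6 and 47.7 CPM in DMSO cells at 12 h. For EBP the log2 fold change was −0.17 ± 0.07 (edgeR adjusted p = 0.062) at 4 h (−0.085 ± 0.09 (edgeR adjusted p = 0.56) with replicate 3 alone). It was −0.21 ± 0.07 (edgeR adjusted p = 0.019) at 8 h and −0.35 ± 0.07 (edgeR adjusted p = 4.3e-04) at 12 h. For EBP, leaving out copanlisib replicate 2, copanlisib replicate 3 or DMSO replicate 1 ended the 8 h call (edgeR adjusted p up to 0.11). SC5D, the sterol desaturase, was at 58.5, 60.5 and 46.7 CPM in copanlisib cells, against 66.6, 61.9 and 59.4 CPM in DMSO cells at 4 h. It was at 41.2, 44.2 and 43.1 CPM in copanlisib cells, against 60.9, 62.9 and 62.7 CPM in DMSO cells at 8 h. It was at 39.6, 41.8 and 37.4 CPM in copanlisib cells, against 54.9, 48.9 and 49.5 CPM in DMSO cells at 12 h. At 4 h replicate 3 of copanlisib lay below all DMSO libraries while replicate 2 overlapped them. For SC5D the log2 fold change was −0.18 ± 0.07 (edgeR adjusted p = 0.055) with all libraries and −0.42 ± 0.07 (edgeR adjusted p = 1.8e-05) with replicate 3 alone. It was −0.53 ± 0.07 (edgeR adjusted p = 2.4e-06) at 8 h and −0.37 ± 0.08 (edgeR adjusted p = 4.7e-04) at 12 h. DHCR7 (chr11:71428193-71452868, reverse strand), which reduces the last double bond on the way to cholesterol, was at 85.7, 90.1 and 106 CPM in copanlisib cells, against 170.3, 171 and 178 CPM in DMSO cells at 4 h. It was at 104, 97.6 and 107 CPM in copanlisib cells, against 151, 151 and 158 CPM in DMSO cells at 8 h and at 98.0, 88.5 and 89.5 CPM in copanlisib cells, against 123, 118 and 132 CPM in DMSO cells at 12 h. The copanlisib libraries stayed between 85.7 and 107 CPM at all times, while the DMSO libraries were highest at 4 h and lowest at 12 h. For DHCR7 the log2 fold change was −0.89 ± 0.06 (edgeR adjusted p = 2.1e-11) at 4 h (−0.71 ± 0.06 (edgeR adjusted p = 2.9e-13) with replicate 3 alone). It was −0.58 ± 0.06 (edgeR adjusted p = 3.4e-08) at 8 h and −0.44 ± 0.06 (edgeR adjusted p = 4.6e-06) at 12 h.

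**Figure D2:**
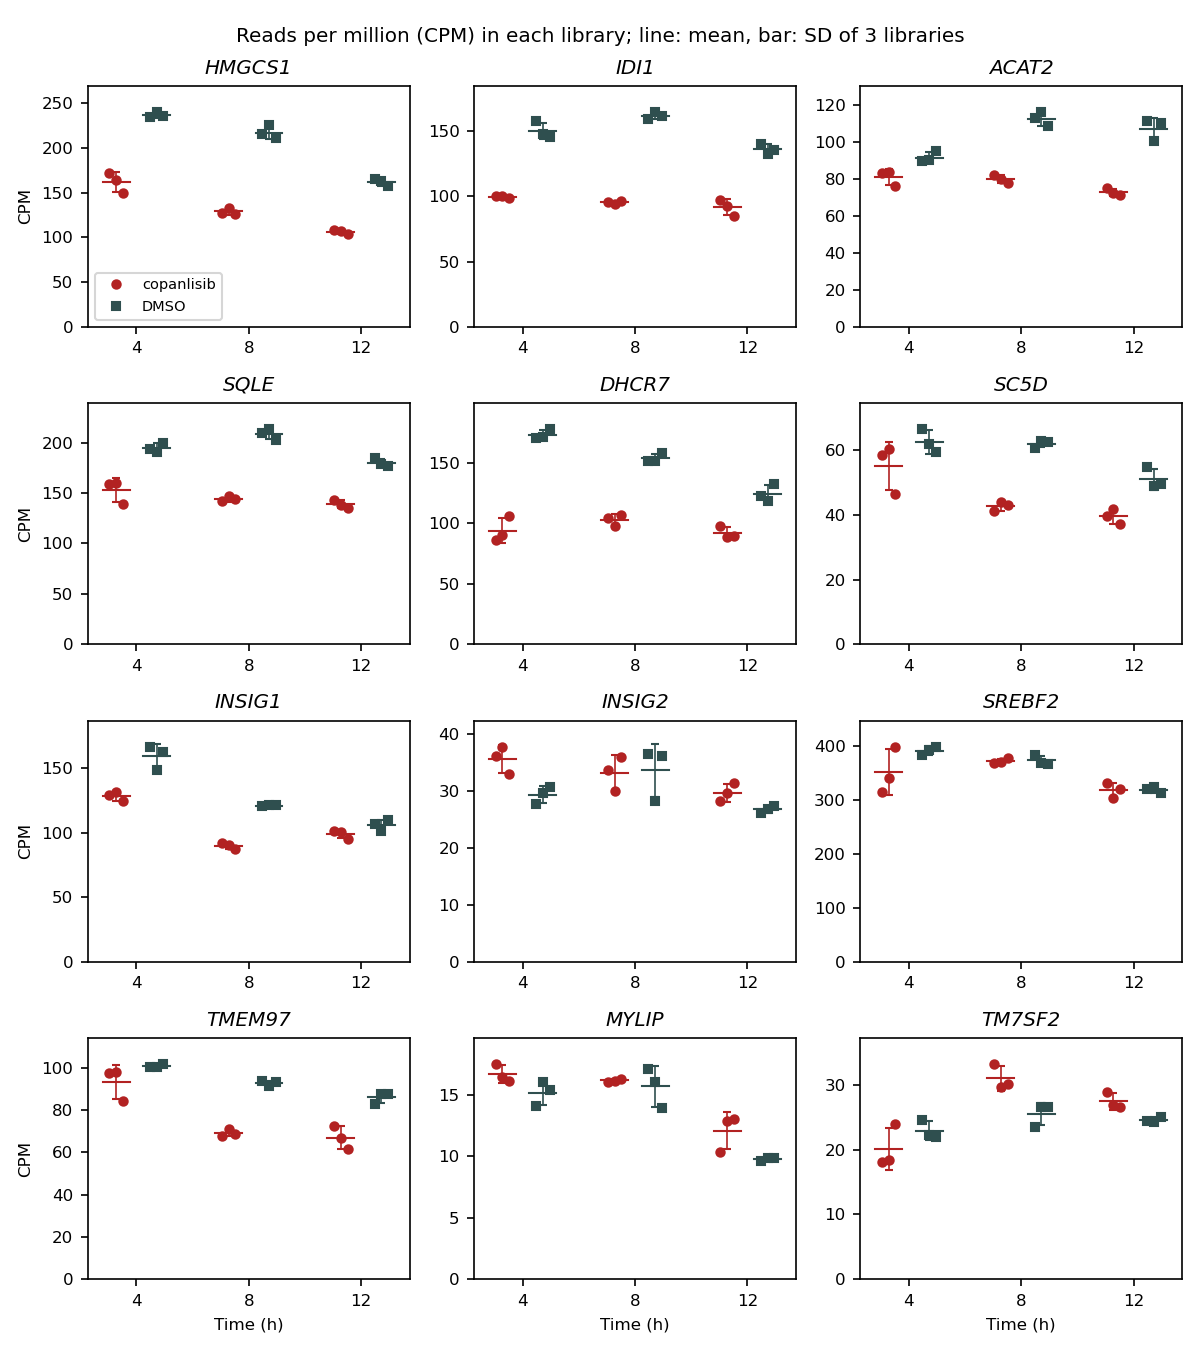
CPM in each of the 18 libraries (y axes from 0, x axes the time in h) for 12 of the 29 genes, copanlisib as red circles to the left of DMSO as dark squares, with the mean as a line and the SD of 3 libraries as a bar. HMGCS1, IDI1, SQLE and DHCR7 are separated at all times, INSIG1 at 4 and 8 h with a narrow gap at 12 h, SREBF2 coincides at 8 and 12 h, and at 4 h a copanlisib library sits apart from the other 2 in SC5D, TMEM97 and SREBF2.

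Of the 4 genes of SREBP2 control, 3 fell and 1 rose at 4 h, 1 fell at 8 h and 0 passed at 12 h (edgeR; 0 also by DESeq2, and 1 at an unadjusted p under 0.05). With replicate 3 alone INSIG1 alone passed at 4 h. SREBF2, whose product is cut to release SREBP2 and whose promoter window held the single SRE match, was at 316, 341 and 399 CPM in copanlisib cells, against 383, 392 and 399 CPM in DMSO cells at 4 h. It was at 369, 370.2 and 377 CPM in copanlisib cells, against 384, 369.6 and 367 CPM in DMSO cells at 8 h and at 331, 303 and 321 CPM in copanlisib cells, against 321, 324 and 313 CPM in DMSO cells at 12 h. Copanlisib replicate 3 was level with the highest DMSO library at 4 h and replicates 1 and 2 were lower, and the groups overlapped at 8 and 12 h. For SREBF2 the log2 fold change was −0.15 ± 0.06 (edgeR adjusted p = 0.030) at 4 h, or 0.031 ± 0.05 (edgeR adjusted p = 0.72) with replicate 3 alone. It was −0.0059 ± 0.06 (edgeR adjusted p = 0.95) at 8 h and −0.0027 ± 0.06 (edgeR adjusted p = 0.98) at 12 h, with 95% intervals of −0.11 to 0.10 and −0.11 to 0.11. For SREBF2, leaving out copanlisib replicate 1, copanlisib replicate 2, DMSO replicate 2 or DMSO replicate 3 ended the 4 h call (edgeR adjusted p up to 0.21). Counting without strand ended it too (edgeR adjusted p = 0.054). SCAP, the escort of SREBP2, was at 50.5, 57.9 and 65.1 CPM in copanlisib cells, against 67.2, 69.4 and 68.0 CPM in DMSO cells at 4 h. For SCAP the log2 fold change was −0.24 ± 0.07 (edgeR adjusted p = 0.0046) with all libraries and −0.066 ± 0.07 (edgeR adjusted p = 0.53) with replicate 3 alone. It was −0.082 ± 0.06 at 8 h and 0.019 ± 0.06 at 12 h.

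INSIG1 (chr7:155297776-155310235, forward strand), which retains SCAP and is itself a target of SREBP2, was at 129, 132 and 124 CPM in copanlisib cells, against 167, 148 and 162 CPM in DMSO cells at 4 h. It was at 92.1, 90.0 and 87.1 CPM in copanlisib cells, against 120.4, 121 and 121 CPM in DMSO cells at 8 h and at 101, 100.1 and 95.2 CPM in copanlisib cells, against 107, 101 and 109.6 CPM in DMSO cells at 12 h. The groups were apart at 4 and 8 h and close to each other at 12 h. For INSIG1 the log2 fold change was −0.31 ± 0.05 (edgeR adjusted p = 1.2e-05) at 4 h (−0.35 ± 0.06 (edgeR adjusted p = 5.4e-06) with replicate 3 alone). It was −0.43 ± 0.05 (edgeR adjusted p = 1.1e-07) at 8 h and −0.10 ± 0.05 (edgeR adjusted p = 0.12) at 12 h. INSIG2, which does the same but is not induced by SREBP2, was at 36.2, 37.8 and 33.1 CPM in copanlisib cells, against 27.7, 29.8 and 30.6 CPM in DMSO cells at 4 h, and its groups overlapped at 8 h. For INSIG2 the log2 fold change was 0.28 ± 0.08 (edgeR adjusted p = 0.0099) at 4 h, or 0.17 ± 0.10 (edgeR adjusted p = 0.24) with replicate 3 alone. It was −0.019 ± 0.08 at 8 h and 0.15 ± 0.09 at 12 h. For INSIG2, leaving out copanlisib replicate 2 ended the 4 h call (edgeR adjusted p = 0.059).

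Of the 4 genes of uptake and transport, 0 passed at 4 h (edgeR; 0 also by DESeq2 and at an unadjusted p under 0.05), 3 fell at 8 h, and 3 fell and 1 rose at 12 h. In the fit with replicate 3 alone, TMEM97 and STARD4 fell at 4 h. TMEM97, a membrane protein that binds NPC1, was at 97.7, 98.1 and 84.3 CPM in copanlisib cells, against 101, 101 and 102 CPM in DMSO cells at 4 h. It was at 67.9, 71.2 and 68.8 CPM in copanlisib cells, against 93.6, 91.4 and 93.2 CPM in DMSO cells at 8 h and at 72.7, 66.7 and 61.7 CPM in copanlisib cells, against 82.9, 87.8 and 87.9 CPM in DMSO cells at 12 h. The copanlisib libraries were lower at each time, but at 4 h replicates 1 and 2 came within a few CPM of DMSO. For TMEM97 the log2 fold change was −0.11 ± 0.06 (edgeR adjusted p = 0.12) at 4 h, or −0.26 ± 0.06 (edgeR adjusted p = 0.0017) with replicate 3 alone. It was −0.42 ± 0.06 (edgeR adjusted p = 2.7e-06) at 8 h and −0.36 ± 0.06 (edgeR adjusted p = 3.1e-05) at 12 h. The annotation holds 2 pseudogenes named after TMEM97, so its level is uncertain too. STARD4, which carries sterol through the cytosol, was at 168, 159 and 137 CPM in copanlisib cells, against 160.2, 169 and 159 CPM in DMSO cells at 4 h, where copanlisib replicate 3 was the lowest and replicate 1 overlapped DMSO. For STARD4 the log2 fold change was −0.072 ± 0.05 (edgeR adjusted p = 0.32) at 4 h, or −0.24 ± 0.05 (edgeR adjusted p = 4.7e-04) with replicate 3 alone. It was −0.24 ± 0.05 (edgeR adjusted p = 9.5e-04) at 8 h and −0.15 ± 0.06 (edgeR adjusted p = 0.037) at 12 h. For STARD4, leaving out copanlisib replicate 1, copanlisib replicate 2, DMSO replicate 1, DMSO replicate 2 or DMSO replicate 3 ended the 12 h call (edgeR adjusted p up to 0.17). NPC1, which exports cholesterol from lysosomes, was at 54.7, 51.5 and 56.7 CPM in copanlisib cells, against 63.8, 66.0 and 65.4 CPM in DMSO cells at 8 h. For NPC1 the log2 fold change was −0.048 ± 0.05 (edgeR adjusted p = 0.47) at 4 h (−0.059 ± 0.06 with replicate 3 alone). It was −0.26 ± 0.05 (edgeR adjusted p = 1.8e-04) at 8 h and −0.21 ± 0.05 (edgeR adjusted p = 0.0030) at 12 h. MYLIP, the ubiquitin ligase that marks lipoprotein receptors for degradation, was at 10.4, 12.9 and 13.1 CPM in copanlisib cells, against 9.59, 9.90 and 9.88 CPM in DMSO cells at 12 h. Those groups did not overlap, and the log2 fold change was 0.30 ± 0.10 (edgeR adjusted p = 0.019), against 0.13 ± 0.09 at 4 h (0.080 ± 0.11 with replicate 3 alone) and 0.033 ± 0.08 at 8 h. For MYLIP, leaving out copanlisib replicate 2, copanlisib replicate 3 or DMSO replicate 1 ended the 12 h call (edgeR adjusted p up to 0.12).

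The exporters were scarce. ABCA1, which loads cholesterol onto apolipoproteins, had 6 to 42 reads per library on the counted strand, and 535 reads in all on the opposite strand against 392 on its own. It was at 1.65, 1.14 and 1.28 CPM in copanlisib cells, against 0.518, 0.303 and 0.980 CPM in DMSO cells at 4 h. It was at 1.77, 1.77 and 0.946 CPM in copanlisib cells, against 0.745, 1.39 and 0.588 CPM in DMSO cells at 8 h. It was at 1.11, 1.50 and 1.76 CPM in copanlisib cells, against 1.00, 1.09 and 0.728 CPM in DMSO cells at 12 h. The copanlisib libraries were higher without overlap at 4 h and, by a narrow gap (1.11 against 1.09 CPM), at 12 h. They overlapped DMSO at 8 h. For ABCA1, leaving out copanlisib replicate 1 or DMSO replicate 2 ended the 4 h call (edgeR adjusted p up to 0.12). For ABCA1 the log2 fold change was 1.17 ± 0.37 (edgeR adjusted p = 0.015) at 4 h, or 1.08 ± 0.48 (edgeR adjusted p = 0.10) with replicate 3 alone. It was 0.69 ± 0.33 (edgeR adjusted p = 0.11) at 8 h and 0.64 ± 0.34 (edgeR adjusted p = 0.16) at 12 h. ABCG1, which exports cholesterol to mature lipoproteins, passed at no time. It held 2.78 to 3.40 CPM in copanlisib cells and 2.88 to 3.18 CPM in DMSO cells at 4 h. For ABCG1 the log2 fold change was 0.037 ± 0.16 at 4 h (0.18 ± 0.22 with replicate 3 alone). It was 0.031 ± 0.15 at 8 h and 0.12 ± 0.14 at 12 h, with edgeR adjusted p of 0.89, 0.90 and 0.55.

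Whether the effect of copanlisib itself changed with time was tested as the difference between log2 fold changes. Between 8 and 12 h, 0 of the 29 genes passed by edgeR, where 0.0558% of all genes did. At an unadjusted p under 0.05 there were 7, and DESeq2 called 1, INSIG1. INSIG1 had a difference of 0.33 ± 0.07 (edgeR adjusted p = 0.076), 12 h minus 8 h. Between 4 and 8 h, 10 of the 29 passed, where 19.1% of all genes did, but with replicate 3 alone 0 passed by edgeR, where 2.40% of all genes did, and 5 had an unadjusted p under 0.05. Between 4 and 12 h, 5 passed against 16.7% of all genes, and with replicate 3 alone 4 passed against 5.29%. Of these, DHCR7, ACAT2 and INSIG1 passed in both fits, but INSIG1 did not pass when no filter was set on low counts (edgeR adjusted p = 0.12) or when reads were counted without strand (edgeR adjusted p = 0.067). The effect on DHCR7 was smaller at 12 h than at 4 h, by 0.45 ± 0.09 (edgeR adjusted p = 0.0011) with all libraries and 0.27 ± 0.08 (edgeR adjusted p = 0.021) with replicate 3 alone. The effect on INSIG1 was smaller by 0.21 ± 0.07 (edgeR adjusted p = 0.039) with all libraries and 0.25 ± 0.07 (edgeR adjusted p = 0.033) with replicate 3 alone. The effect on ACAT2 was larger at 12 h, with a difference of −0.38 ± 0.07 (edgeR adjusted p = 0.0011) with all libraries and −0.29 ± 0.08 (edgeR adjusted p = 0.014) with replicate 3 alone. FDPS passed in the fit with replicate 3 alone, with a difference of −0.27 ± 0.07 (edgeR adjusted p = 0.0099), and TMEM97 and CYP51A1 passed with all libraries. The comparisons at 4 h and the differences share the 4 h libraries and are not independent of each other. With all libraries, the count of 5 between 4 and 12 h is near the share of all genes. Nothing particular to the members is read from it.

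In DMSO cells, levels also changed with time. From 4 to 12 h, 13 of the 29 fell and 6 rose by edgeR's test, where 25.4% of all genes fell and 23.2% rose, and the median log2 fold change, 12 h over 4 h, was −0.13. The fallen were 8 enzymes (HMGCS1, IDI1, LSS, CYP51A1, MSMO1, NSDHL, SC5D and DHCR7), SREBF2, INSIG1, MYLIP, NPC1 and TMEM97, and the risen were ACAT2, PMVK, FDPS, FDFT1, EBP and ABCG1. The count of 6 risen is near the share of all genes, and nothing particular to the members is read from it. HMGCS1 was at 166, 163 and 157 CPM in DMSO cells at 12 h and 235, 241 and 236 CPM in DMSO cells at 4 h, with a log2 fold change over time of −0.55 ± 0.05 (edgeR adjusted p = 4.1e-10). INSIG1 was at 107, 101 and 109.6 CPM in DMSO cells at 12 h and 167, 148 and 162 CPM in DMSO cells at 4 h, with a log2 fold change over time of −0.59 ± 0.05 (edgeR adjusted p = 2.1e-10). LSS was at 166, 171 and 185 CPM in DMSO cells at 12 h and 285, 278 and 296 CPM in DMSO cells at 4 h, with a log2 fold change over time of −0.72 ± 0.07 (edgeR adjusted p = 1.3e-08). These 3 genes are examples with large decreases, and their libraries did not overlap between the times. How often the libraries of all tested genes separated in this way was not counted. In the other direction, FDPS was at 323, 314 and 329 CPM in DMSO cells at 12 h and 231, 221 and 237 CPM in DMSO cells at 4 h (0.49 ± 0.05 (edgeR adjusted p = 4.5e-09)), and PMVK changed by 0.35 ± 0.08 (edgeR adjusted p = 6.5e-04). MYLIP changed by −0.64 ± 0.09 (edgeR adjusted p = 3.4e-06) and SREBF2 by −0.30 ± 0.06 (edgeR adjusted p = 8.7e-05). For IDI1, leaving out 4 h replicate 1 or 12 h replicate 2 ended this call (edgeR adjusted p up to 0.12). It also ended for IDI1 without the filter (edgeR adjusted p = 0.17) and without strand (edgeR adjusted p = 0.062). For NSDHL, leaving out 4 h replicate 3 or 12 h replicate 2 ended this call (edgeR adjusted p up to 0.074). For EBP, leaving out 4 h replicate 1, 4 h replicate 2 or 12 h replicate 3 ended this call (edgeR adjusted p up to 0.19).

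**Figure D3:**
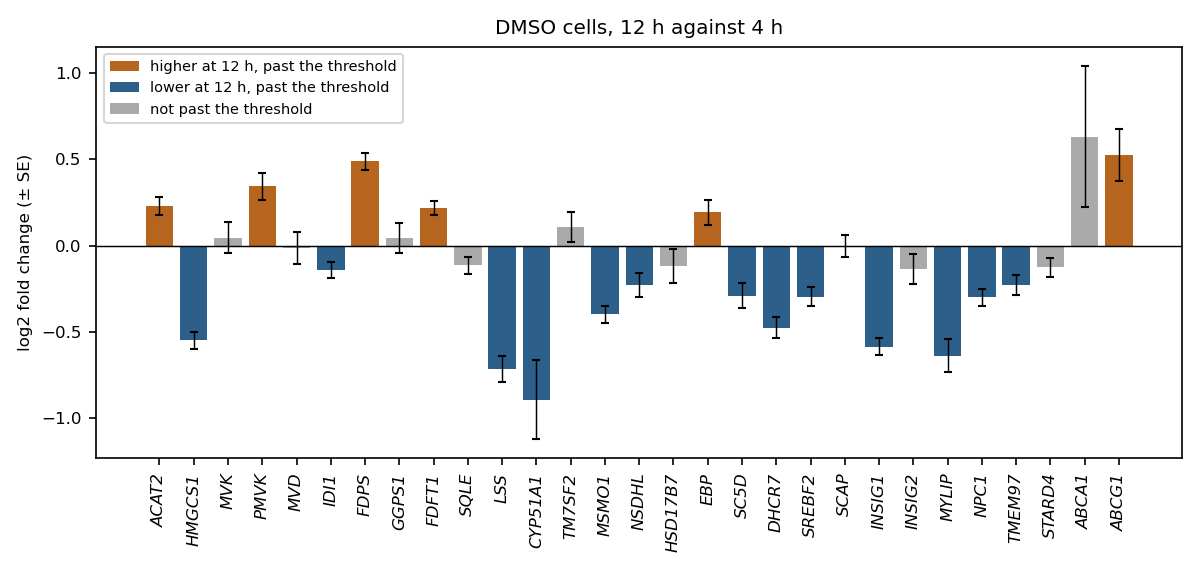
Log2 fold change of DMSO cells at 12 h over DMSO cells at 4 h for the 29 genes (bars, with the SE as error bars); orange bars are higher and blue bars lower at 12 h past the threshold, and gray bars did not pass. LSS, INSIG1, HMGCS1, MYLIP and CYP51A1 extend below −0.5, and FDPS and ABCG1 are the highest of the orange bars.

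Per length of exon, the set spanned a wide range of levels. FDPS was highest, at 50.5 CPM per kb in copanlisib cells and 61.8 CPM per kb in DMSO cells at 4 h, and SREBF2 followed at 46.6 CPM per kb in copanlisib cells and 51.8 CPM per kb in DMSO cells. HMGCS1 was at 34.4 CPM per kb in copanlisib cells and 50.4 CPM per kb in DMSO cells, and its level at 12 h was 22.6 CPM per kb in copanlisib cells and 34.4 CPM per kb in DMSO cells. INSIG1 at 4 h, with 35.2 CPM per kb in copanlisib cells and 43.6 CPM per kb in DMSO cells, was more abundant than INSIG2, with 9.04 and 7.43 CPM per kb in copanlisib and DMSO cells. The lowest were CYP51A1, ABCG1 and ABCA1, all under 1 CPM per kb in every group.

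**Figure D4:**
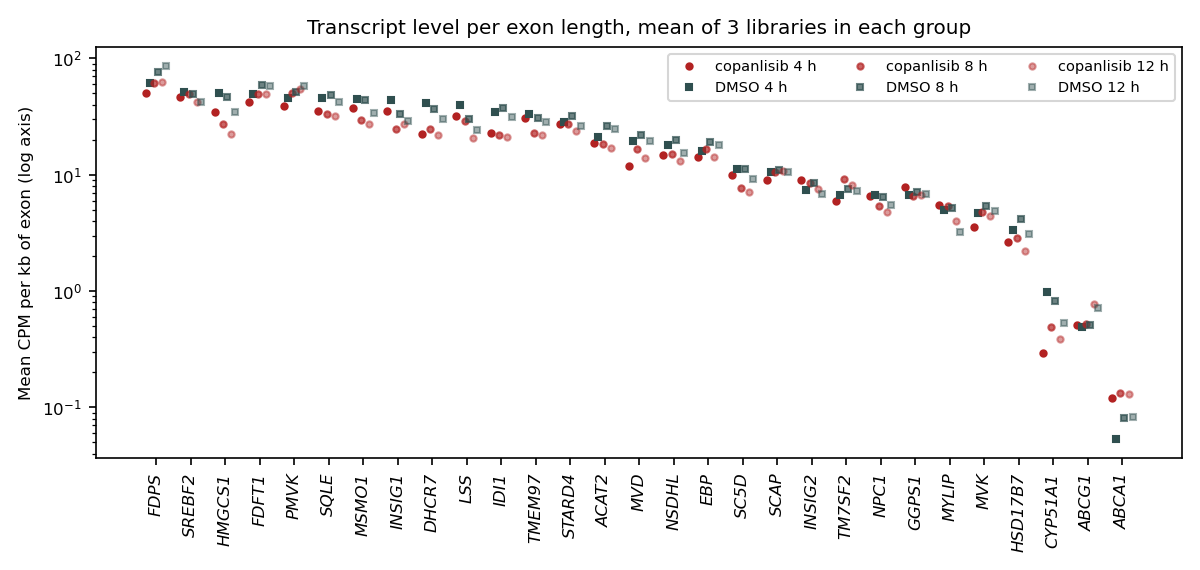
Mean CPM per kb of exon (log axis) of each of the 29 genes in the 6 groups, copanlisib as red circles and DMSO as dark squares, with fainter marks for later times; genes are ordered by their DMSO level at 4 h. FDPS, SREBF2 and HMGCS1 lead the order, and CYP51A1, ABCG1 and ABCA1 lie under 1 CPM per kb.

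Set against the promoter letters, the 19 genes with an NF-Y box in their window had a median log2 fold change of −0.29 at 4 h, −0.39 at 8 h and −0.33 at 12 h, and 12, 13 and 13 of them fell. Their 4 h median was −0.26 with replicate 3 alone, and 12 fell. The 6 genes with a window and no NF-Y box (ABCA1, CYP51A1, INSIG2, NPC1, PMVK and SCAP) had medians of −0.13, −0.057 and −0.036 at 4, 8 and 12 h, and 3, 2 and 1 of them fell. Their 4 h median was −0.016 with replicate 3 alone, and 1 fell. SREBF2, which held both an SRE and an NF-Y box, did not pass at 8 or 12 h. HMGCS1 and IDI1 had the lowest log2 fold changes at 8 and 12 h, and their windows do not hold these exact SRE letters. The search took exact letters within the windows only, so the lack of a match does not show that an SRE is absent. A part of SREBP2 in these values was not tested. The 4 genes with no entry in the promoter table (ACAT2, FDFT1, SQLE and ABCG1) are in neither group, and the medians are descriptions without a test. Most of the 19 genes with the box are synthesis enzymes, while of the 6 without it only CYP51A1 and PMVK are. The box and the role in the pathway therefore cannot be told apart here. How often other tested genes with the box fell was not computed.

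The rest of the pathway was read from 5 further lists, 67 genes in all, and values are log2 fold changes. Over all tested genes, 20.7% fell and 17.7% rose at 4 h (13.4% and 8.86% with replicate 3 alone), 18.3% and 14.8% at 8 h, and 16.5% and 13.8% at 12 h. Several of the counts in these lists are near those shares, and nothing particular to a list is read from them. Among 13 other genes of sterol synthesis and SREBP processing, 2 fell and 4 rose at 4 h, 4 fell and 1 rose at 8 h, and 3 fell and 2 rose at 12 h (median −0.047, −0.13 and −0.11), with 2 risen at 4 h by DESeq2. Without copanlisib replicates 1 and 2 of 4 h, 4 fell and 0 rose at 4 h, with 0 also at an unadjusted p under 0.05 on the higher side. SREBF1, the paralog of SREBF2 that drives fatty acid genes, was at −1.09 ± 0.10 (edgeR adjusted p = 6.5e-09) at 4 h (−0.67 ± 0.07 with replicate 3 alone). It was −0.36 ± 0.11 (edgeR adjusted p = 0.011) at 8 h and −0.47 ± 0.10 (edgeR adjusted p = 0.0011) at 12 h. SPRING1, which supports SREBP processing, was at −0.28 ± 0.06 (edgeR adjusted p = 0.0011) at 4 h (−0.28 ± 0.09 (edgeR adjusted p = 0.015) with replicate 3 alone). MBTPS2, a protease that cuts SREBP precursors, was at −0.32 ± 0.08 (edgeR adjusted p = 0.0025) at 8 h. FAXDC2, a sterol oxidase family member, rose: its log2 fold change was 0.96 ± 0.32 (edgeR adjusted p = 0.018) at 4 h (0.65 ± 0.46 (edgeR adjusted p = 0.35) with replicate 3 alone). It was 1.38 ± 0.27 (edgeR adjusted p = 2.9e-04) at 8 h and 1.20 ± 0.28 (edgeR adjusted p = 0.0017) at 12 h. AACS also rose at 12 h by edgeR and did not pass at 4 or 8 h. At 12 h AACS was at 26.3, 27.5 and 27.9 CPM in copanlisib cells, against 21.6, 21.0 and 22.2 CPM in DMSO cells.

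In the isoprenoid branch, which draws on FDPS and GGPS1 for ubiquinone, dolichol and prenylated proteins, 7 of 15 genes fell at 4 h, 9 at 8 h and 7 at 12 h, and 0 rose at any time by edgeR, by DESeq2 or at an unadjusted p under 0.05 (median −0.19, −0.21 and −0.18). With replicate 3 alone 5 fell at 4 h. PDSS1, which builds the tail of ubiquinone, was at −0.40 ± 0.08 (edgeR adjusted p = 3.8e-04) at 4 h (−0.56 ± 0.12 with replicate 3 alone). It was −0.92 ± 0.09 (edgeR adjusted p = 4.0e-09) at 8 h and −0.71 ± 0.09 (edgeR adjusted p = 9.3e-07) at 12 h. RABGGTB, a subunit of the Rab prenyltransferase, was at −0.51 ± 0.06 (edgeR adjusted p = 4.8e-08) at 8 h, and NUS1 of dolichol synthesis at −0.48 ± 0.07 (edgeR adjusted p = 9.9e-06) at 8 h. At 4 h the largest were RCE1, a protease of prenylated proteins, at −0.55 ± 0.10 (edgeR adjusted p = 1.2e-04) and the dolichol kinase gene DOLK at −0.49 ± 0.12 (edgeR adjusted p = 0.0022), which were −0.25 ± 0.11 (edgeR adjusted p = 0.099) and −0.30 ± 0.15 (edgeR adjusted p = 0.15) with replicate 3 alone.

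Of 10 tested genes of lipoprotein uptake and lysosomal release, 3 fell and 2 rose at 4 h, 2 fell and 1 rose at 8 h, and 3 fell and 2 rose at 12 h (median −0.054, 0.018 and 0.090). In the fit with replicate 3 alone, 2 fell and 1 rose at 4 h and the median was 0.054. LRP8 and VLDLR, receptors that take up lipoproteins, fell at all times. LRP8 was at −0.71 ± 0.05 (edgeR adjusted p = 8.0e-11) at 4 h (−0.70 ± 0.07 with replicate 3 alone). It was −0.65 ± 0.05 (edgeR adjusted p = 4.8e-10) at 8 h and −0.60 ± 0.05 (edgeR adjusted p = 2.6e-09) at 12 h. VLDLR was at −0.31 ± 0.06 (edgeR adjusted p = 7.9e-05) at 4 h (−0.40 ± 0.08 with replicate 3 alone). It was −0.53 ± 0.06 (edgeR adjusted p = 4.0e-08) at 8 h and −0.63 ± 0.06 (edgeR adjusted p = 3.5e-09) at 12 h. LRP1, another endocytic receptor, rose at 4, 8 and 12 h by edgeR, and was at 0.43 ± 0.07 (edgeR adjusted p = 3.9e-05) at 8 h. SORT1, a sorting receptor, was at 0.78 ± 0.17 (edgeR adjusted p = 0.0010) at 12 h. LIPA, the lysosomal lipase, was at 0.21 ± 0.07 (edgeR adjusted p = 0.025) at 4 h and 0.0034 ± 0.08 (edgeR adjusted p = 0.98) with replicate 3 alone.

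Of 10 tested genes of LXR, storage and efflux, 3 fell and 0 rose at 4 h (edgeR; 0 also by DESeq2 and at an unadjusted p under 0.05), 2 fell and 1 rose at 8 h, and 2 fell and 2 rose at 12 h (median −0.0038, 0.094 and 0.054). Without copanlisib replicates 1 and 2 of 4 h 0 fell and 2 rose at 4 h, the median was 0.11, and 2 had an unadjusted p under 0.05 on the lower side. SOAT1, which esterifies cholesterol for storage, was at −0.18 ± 0.06 (edgeR adjusted p = 0.017) at 4 h (−0.19 ± 0.08 (edgeR adjusted p = 0.078) with replicate 3 alone). It was −0.47 ± 0.06 (edgeR adjusted p = 4.6e-07) at 8 h and −0.53 ± 0.06 (edgeR adjusted p = 7.6e-08) at 12 h. ABCA7, a lipid exporter related to ABCA1, was at 0.52 ± 0.12 (edgeR adjusted p = 0.0013) at 8 h and 0.45 ± 0.11 (edgeR adjusted p = 0.0024) at 12 h. NR1H2, an LXR gene, was at −0.37 ± 0.08 (edgeR adjusted p = 5.1e-04) at 4 h but −0.095 ± 0.07 (edgeR adjusted p = 0.36) with replicate 3 alone. LPCAT3, a lysophospholipid acyltransferase induced by LXR, was at −0.32 ± 0.08 (edgeR adjusted p = 0.0021) at 4 h (−0.27 ± 0.11 (edgeR adjusted p = 0.074) with replicate 3 alone) and −0.21 ± 0.07 (edgeR adjusted p = 0.028) at 8 h. PLTP, the phospholipid transfer protein, was at −0.27 ± 0.09 (edgeR adjusted p = 0.027) at 12 h. Of 12 tested genes of sterol transfer and oxysterol handling, 2 fell and 3 rose at 4 h (1 and 3 with replicate 3 alone), 2 fell and 4 rose at 8 h, and 2 fell and 5 rose at 12 h (median 0.077, 0.070 and 0.091). GRAMD1C, which carries sterol from the plasma membrane to the endoplasmic reticulum, was at 0.72 ± 0.09 (edgeR adjusted p = 7.5e-07) at 4 h (0.54 ± 0.13 with replicate 3 alone). It was 0.97 ± 0.08 (edgeR adjusted p = 1.5e-09) at 8 h and 0.77 ± 0.08 (edgeR adjusted p = 4.1e-08) at 12 h. Its relative GRAMD1A was at −0.53 ± 0.07 (edgeR adjusted p = 2.6e-06) at 4 h (−0.28 ± 0.06 with replicate 3 alone) and −0.33 ± 0.07 (edgeR adjusted p = 0.0012) at 12 h. HSD3B7, an enzyme of bile acid synthesis, was at 0.68 ± 0.17 (edgeR adjusted p = 0.0024) at 8 h and 0.63 ± 0.16 (edgeR adjusted p = 0.0030) at 12 h. OSBPL9, an oxysterol-binding protein family member, was at 0.52 ± 0.06 (edgeR adjusted p = 1.3e-07) at 4 h (0.32 ± 0.06 with replicate 3 alone). STARD5, a sterol carrier, was at 0.30 ± 0.07 (edgeR adjusted p = 8.4e-04) at 8 h.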

How the data were processed

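RNA sequencing was run on 18 libraries of HAIR-M, 3 for each of 6 groups given by the labels. The authors deposited raw read counts per gene for each library, with no normalization. Per the submitters' processing notes, CASAVA 1.7 and STAR 2.5.2b were used with hg38. Which annotation release was used for counting could not be read from the labels. The kit named in the labels' protocols does not mark strand, but of the reads in the strand columns 94.3% to 95.3% lay in 1 of them, which was used, with the count without strand as an alternative. Reads mapping to several places (9.21% to 10.1%) were not counted, and the 4 summary lines per file (unmapped, multimapping, no feature, ambiguous) were left out. The protocols also speak of retinas, so retina markers were checked. Of the 60483 identifiers, 56321 were named from a gene name table and 432 from GENCODE 29; overlaps and exon lengths came from GENCODE 29. Tests used R 4.3.3 with edgeR 4.0.16 (TMM, filterByExpr by group, 1 mean per group over all 18 libraries, glmQLFit and glmQLFTest, two-sided), which tested 16122 of 35239 genes with a read. CPM of the pathway genes were computed from the deposited counts and TMM-scaled library sizes. Those of the markers were computed from the deposited counts and the unscaled total of gene reads. Each SE is the absolute log2 fold change divided by the square root of edgeR's F statistic. The 95% intervals take this SE and the normal distribution, so they are approximate. The common biological coefficient of variation was 0.050. Alternatives were DESeq2 1.42.0 and its size factors, limma 3.58.1 (voom), no filter, counts without strand, a replicate block, only the libraries of a time, stricter thresholds and leaving out libraries. Replicate pairs differed by a chi-square of 1.52 to 2.94 per gene, and by 19.9 and 15.8 for replicates 1 and 2 of copanlisib at 4 h against replicate 3, where 1 is sampling noise, so all were kept as separate. The script was tested on simulated data. The members, lists and alternatives were chosen with earlier results of these data known. All 29 members are named, and of the other lists the 3 tested genes with the largest log2 fold change past the threshold per list and time. Promoter windows and their letters are RefSeq's, GRCh38.p14. Some genes of the pathway and 1 marker are not reported here.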

Additional observations from a re-analysis of the deposited data

Results flagged for a closer look

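The difference between log2 fold changes at 2 times was tested with edgeR. From 4 to 8 h 10 of the 29 members passed, where 19.1% of all tested genes did. From 4 to 12 h 5 of the 29 passed, where 16.7% of all tested genes did. The latter count is near the share of all genes, and nothing particular to the members is read from it. Between 4 and 8 h (8 h minus 4 h), the difference was −0.20 ± 0.07 (edgeR adjusted p = 0.034) for HMGCS1, −0.36 ± 0.12 (edgeR adjusted p = 0.038) for GGPS1, −0.36 ± 0.10 (edgeR adjusted p = 0.019) for SC5D, −0.28 ± 0.07 (edgeR adjusted p = 0.0087) for MSMO1 and −0.32 ± 0.07 (edgeR adjusted p = 0.0047) for ACAT2. It was −0.31 ± 0.08 (edgeR adjusted p = 0.012) for TMEM97 and −0.21 ± 0.07 (edgeR adjusted p = 0.034) for NPC1. On the positive side, a smaller decrease or a rise at 8 h, it was 1.07 ± 0.35 (edgeR adjusted p = 0.034) for CYP51A1, 0.31 ± 0.09 (edgeR adjusted p = 0.015) for DHCR7 and 0.47 ± 0.12 (edgeR adjusted p = 0.010) for TM7SF2. With replicate 3 as the only copanlisib library at 4 h, none of these 10 passed in edgeR. Their differences were then −0.095 ± 0.06 for HMGCS1, −0.066 ± 0.11 for GGPS1, −0.12 ± 0.09 for SC5D and 0.21 ± 0.11 for TM7SF2, with edgeR adjusted p for the 10 between 0.080 and 0.85. With all libraries, HMGCS1 and NPC1 also did not pass without the filter on low counts (edgeR adjusted p = 0.093 and 0.18) or with counts without strand (0.061 and 0.086).

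Between 4 and 12 h (12 h minus 4 h), the difference was 0.21 ± 0.07 (edgeR adjusted p = 0.039) for INSIG1, 1.34 ± 0.38 (edgeR adjusted p = 0.017) for CYP51A1 and 0.45 ± 0.09 (edgeR adjusted p = 0.0011) for DHCR7, and −0.38 ± 0.07 (edgeR adjusted p = 0.0011) for ACAT2 and −0.25 ± 0.08 (edgeR adjusted p = 0.039) for TMEM97. With replicate 3 alone, INSIG1, DHCR7 and ACAT2 passed, while CYP51A1 was at 0.71 ± 0.39 (edgeR adjusted p = 0.34) and TMEM97 at −0.10 ± 0.08 (edgeR adjusted p = 0.54). With all libraries, INSIG1 did not pass without the filter (edgeR adjusted p = 0.12) or with counts without strand (edgeR adjusted p = 0.067).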

How the results depend on the processing

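With DESeq2's size factors, without the filter on low counts, with DESeq2, with limma-voom and with the counts without strand, the numbers of members that fell or rose stayed within 1.5 times of those reported in the 3 copanlisib comparisons, and no member past the threshold changed sign in any of these. DESeq2 called 1 member between 8 and 12 h. A log2 fold change of at least 0.5 left 5, 8 and 4 fallen and 1, 0 and 0 risen members at 4, 8 and 12 h, 1809, 1396 and 1239 genes in all, 1 member each between 4 and 8 h and between 4 and 12 h, and 5 fallen and 1 risen over time in DMSO cells. An adjusted p under 0.01 left 1 and 0 risen members at 4 and 12 h and 2 members each between 4 and 8 h and between 4 and 12 h. The shares of all tested genes at that threshold are not given, and nothing particular to the members is read from these counts. With only the 6 libraries of the time, 3733 genes passed at 4 h and 3 members rose at 12 h. In these smaller fits 6 members lost their 4 h call (ACAT2, LSS, SCAP, GGPS1, PMVK and SREBF2, with edgeR adjusted p from 0.054 to 0.19), and MVK at 8 h (0.013) and INSIG2 (0.046) and TM7SF2 (0.036) at 12 h gained one. With replicate 3 as the only copanlisib library at 4 h, 3778 genes passed, 0 members rose and 0 passed between 4 and 8 h. The median of the members over time in DMSO cells was −0.10 without the filter and −0.10 without strand. The cause was not tested.

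Leaving out 1 library at a time gave 1 to 3 risen members at 4 h, 0 to 2 at 8 h and 0 to 1 at 12 h. Medians were −0.28 to −0.21 at 4 h, −0.29 to −0.26 at 8 h, −0.26 to −0.21 at 12 h and −0.14 to −0.10 over time in DMSO cells. Between 4 and 8 h 4 to 21 members passed, the most without copanlisib replicate 3 of 4 h, and between 4 and 12 h 2 to 15, the most again without that library. Without it, only replicates 1 and 2 stood for copanlisib at 4 h, which differed from all other libraries. The shares of all tested genes in these fits are not given, and nothing particular to the members is read from the counts. Of the calls, 14 of 21 at 4 h, 16 of 19 at 8 h, 14 of 18 at 12 h and 16 of 19 over time in DMSO cells held whichever library was left out.

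The log2 fold changes of 3 members past the threshold turned sign, all at 4 h with replicate 3 alone: GGPS1 at −0.055, PMVK at 0.028 and SREBF2 at 0.031. The others that turned sign had not passed: TM7SF2 at 4 h was 0.071 in that fit, SREBF2 was 0.0088 at 8 h without the filter and 0.0003 at 12 h without strand, and over time in DMSO cells MVD was 0.013 and SCAP 0.026 without the filter, and MVD 0.0079 and SCAP 0.024 without strand. With 1 library left out, the range was −0.14 to 0.0055 for STARD4 and −0.034 to 0.10 for ABCG1 at 4 h, and −0.13 to 0.058 for INSIG2, −0.078 to 0.026 for PMVK, −0.023 to 0.021 for SREBF2, −0.039 to 0.11 for MYLIP and −0.094 to 0.15 for ABCG1 at 8 h. At 12 h it was −0.056 to 0.015 for GGPS1, −0.033 to 0.029 for SREBF2 and −0.012 to 0.058 for SCAP, and over time in DMSO cells −0.058 to 0.031 for MVD and −0.025 to 0.028 for SCAP.

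No clear pairing by replicate number was seen. The correlation of same-numbered deviations from the group means lay between −0.034 and 0.10, and some libraries correlated better with another number. The highest value, 0.101, was that of the same-numbered replicates 3 at 4 h. Low correlations cannot show that the cultures were unpaired, since noise between libraries also lowers them. With the replicate number as a block, 19, 18 and 17 members fell and 3, 1 and 1 rose at 4, 8 and 12 h. The shares of all tested genes in the fit with the block are not given.

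Depth limits ABCA1 and CYP51A1, with at most 42 and 67 reads in a library. The levels of genes with named pseudogenes (FDPS, CYP51A1, HSD17B7 and TMEM97) or exons shared on the same strand (CYP51A1 and GGPS1) are uncertain. The 3 libraries per group bound the precision of every value.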
